A study of Rattus norvegicus with 12 samples.

Results

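The glucocorticoid-responsive genes examined here were SGK1, CDKN1A, DDIT4 and GLUL in the choroid plexus of the rat, 4 of the 32883 genes in the deposited tables. The set was defined from 6 symbols of genes that glucocorticoids are known to induce, and a symbol became a member when the supplementary tables of the study paired it with an Ensembl identifier. The remaining 2 symbols, FKBP5 and TSC22D3, had no identifier in the parts of those tables used here and were left out. The phase difference of a gene did not enter the rule, but its level did in part, since the tables used here pair symbols mostly for genes that are highly expressed or that the study called different, and all 4 members were paired in the table of expression levels. RNA-seq libraries were made from the choroid plexus of 12 male Sprague-Dawley rats of 9 weeks, with 6 rats taken by day (light phase, zeitgeber time 8 h, ZT8) and 6 by night (dark phase, ZT20), both 8 h after the change of light. All rats were anesthetized with ketamine and xylazine before the tissue was taken.

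Glucocorticoids, corticosterone in the rat, enter the cell and bind the glucocorticoid receptor, which is held ready by HSP90 and its co-chaperones and then moves to the nucleus to activate or repress genes. In nocturnal rodents corticosterone follows a daily rhythm that peaks around the start of the active, dark phase and falls through the night. The 4 members stand for different branches of the response. SGK1 is a kinase that raises the activity of sodium channels and transporters in epithelia, CDKN1A (p21) inhibits cyclin-dependent kinases and is also a target of p53, DDIT4 (REDD1) restrains the growth kinase complex mTORC1, and GLUL, the glutamine synthetase, joins ammonia to glutamate. Corticosterone was not part of the data analyzed here.

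The promoters of the members called different between the phases, SGK1 and CDKN1A, are shown because they are where a receptor or a clock factor could bind near the start of transcription. The sequences are those of RefSeq on the build GRCr8, the 250 bases before a start site, 5′ to 3′, while the expression values rest on Rnor_6.0. For SGK1, RefSeq holds 3 start sites, and the one farthest downstream is given (chr1:24804832-24805081, minus strand), with GC boxes and a TATA box in capitals. For CDKN1A the only start site given is shown (chr20:7150682-7150931, plus strand), with a match to the p53 decamer in capitals.
SGK1: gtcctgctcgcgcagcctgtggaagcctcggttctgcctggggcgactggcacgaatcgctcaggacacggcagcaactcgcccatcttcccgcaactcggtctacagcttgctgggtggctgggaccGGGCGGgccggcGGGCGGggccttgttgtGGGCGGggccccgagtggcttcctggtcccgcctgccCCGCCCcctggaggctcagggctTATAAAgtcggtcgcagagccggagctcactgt
CDKN1A: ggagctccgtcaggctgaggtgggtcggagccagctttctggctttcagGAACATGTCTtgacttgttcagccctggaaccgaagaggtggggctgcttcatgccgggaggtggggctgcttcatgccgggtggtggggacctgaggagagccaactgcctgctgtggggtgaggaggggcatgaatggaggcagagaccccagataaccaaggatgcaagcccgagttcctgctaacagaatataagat
Both strands of the 7 windows of the 4 members were searched for the glucocorticoid response element, an inverted repeat of TGTTCT with a spacer of 3 bases, and for TGTTCT alone. Neither was present in any of the 7 windows, and of all 33469 windows of this length 0.012% held the first and 17.5% the second. The E-box CACGTG (5.59% of all windows) and the D-box TTATGTAA (0.828%) were absent as well, and CACGTT, a variant of the E-box (4.07%), was found once, in the window of DDIT4. The SGK1 window above holds 4 GC boxes (GGGCGG, in 30.5% of all windows), which begin 122, 110, 93 and 56 bases before the start, and 1 TATA box (TATAAA, in 12.9%), which begins 33 bases before it. The p53 decamer begins 201 bases before the CDKN1A start and occurs in 6.64% of all windows. These matches describe letters only, and elements farther from the start were not searched.

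The tissue was checked against its own markers. TTR, the transthyretin that marks choroid plexus epithelium, lay between 253710 and 304180 TPM (transcripts relative to library size) in the light phase and between 286835 and 309722 TPM in the dark phase, and all 10 epithelial markers listed were detected. Light-phase replicate 2 stood apart, with the lowest TTR of the 12 libraries and with 29548 TPM summed over 3 hemoglobin genes, where the other 11 libraries had 4295 to 11133 TPM. It was also highest for the 2 smooth muscle and pericyte markers that were paired (420 TPM summed, against 165 to 250 TPM in the others) and for the 2 endothelial markers (139 TPM, against 71.4 to 113 TPM). Between the phases, the smooth muscle marker TAGLN (log2 fold change of dark over light -0.73, limma adjusted p = 0.027) was lower by night, as was SGK1. The endothelial marker FLT1 (0.35, limma adjusted p = 0.000175) was higher by night, as was CDKN1A. FLT1 was paired only through the study's table of differentially expressed genes, so that its call follows from how it was paired. The part of these cell types in the results was not tested. The other marker of each type, RGS5 (-0.05, limma adjusted p = 0.900) and PLVAP (-0.19, 0.463), was not called. Of the 10 epithelial markers, 4 were called higher by night (PRLR, KL, OTX2 and CLIC6) and 2 lower (AQP1 and SLC4A5). Their log2 fold changes ran from -0.38 in AQP1 to 0.67 in PRLR, and 4 markers, TTR among them, were not called. Depth relative to the mean of the libraries, estimated from the steps of single reads at low values, ranged from 0.890 to 1.35 by day and from 0.900 to 1.08 by night, and the number of reads behind a value is unknown. The summed FPKM (fragments per kilobase and library size) divided by the summed TPM, called the FPKM to TPM ratio, ranged from 0.953 to 0.987 by day and from 0.934 to 0.960 by night. The results for the members are given with and without light-phase replicate 2 and with adjustment for this ratio.

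To determine whether the members changed with the phase, TPM were scaled per library, transformed to log2(TPM + 0.5) and compared with limma, a linear model with variances moderated across genes, over the 12513 genes that averaged 1 TPM or more. P-values were adjusted with the Benjamini-Hochberg method over all of these genes, a gene was called at an adjusted p under 0.05, and a positive log2 fold change stands for more transcript by night (dark phase over light phase). Of the 4 members, 1 (SGK1) was called with more transcript by day and 1 (CDKN1A) with more by night, against a background of 8.1% and 9.52% of all genes tested, 17.6% in either direction. The members called went in opposite directions, and DDIT4 and GLUL were not called.

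SGK1 was lower in the dark phase. In this bulk tissue, fewer cells that express a gene and less RNA per cell cannot be told apart. Its expression was 163, 177, 173, 108, 128 and 136 TPM in light-phase replicates 1 to 6, and 113, 88.8, 105, 87.6, 102 and 101 TPM in dark-phase replicates 1 to 6. The phases overlapped in a single place, where light-phase replicate 4 lay below dark-phase replicate 1. The mean was 148 ± 27.6 TPM by day and 99.5 ± 9.70 TPM by night (SD over n = 6 rats), so that the light phase exceeded the dark phase by 48.4%. The log2 fold change was -0.57 (standard error 0.10, 95% interval -0.78 to -0.36, limma adjusted p = 0.00173). Among the 1013 genes called higher in the light phase, 139 had a larger change.

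CDKN1A rose in the dark phase. Light-phase replicates 1 to 6 had 197, 216, 229, 179, 204 and 206 TPM, and dark-phase replicates 1 to 6 had 299, 302, 371, 369, 325 and 345 TPM. The phases did not overlap, which was so, in either direction, in 8.26% of all genes tested. The mean increased by 63.6%, from 205 ± 17.1 to 335 ± 31.8 TPM (SD over n = 6 rats). The log2 fold change was 0.69 (standard error 0.07, 95% interval 0.55 to 0.83, limma adjusted p = 1.98e-05), and 88 of the 1191 genes called higher in the dark phase had a larger one. Without light-phase replicate 2, the library rich in hemoglobin, SGK1 had -0.53 (limma adjusted p = 0.00359) and CDKN1A 0.69 (limma adjusted p = 7.2e-05).

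DDIT4 was not called, and its phases overlapped. It had 74.7, 99.7, 73.3, 58.3, 56.5 and 55.7 TPM in light-phase replicates 1 to 6 and 79.1, 80.2, 78.3, 72.0, 77.8 and 87.2 TPM in dark-phase replicates 1 to 6. The highest of the 12 values was that of light-phase replicate 2, while the lowest 3 were also in the light phase. Means were 69.7 ± 17.0 TPM and 79.1 ± 4.89 TPM (SD over n = 6 rats), with a log2 fold change of 0.19 (95% interval -0.04 to 0.42, limma adjusted p = 0.239), so that a rise of up to 1.34-fold lies within the interval. Without light-phase replicate 2, DDIT4 was called higher in the dark phase, with a log2 fold change of 0.29 (limma adjusted p = 0.0191). After adjustment for the FPKM to TPM ratio the estimate was -0.16 (limma adjusted p = 0.485).

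GLUL had the smallest estimate of the 4. Its values were 188, 214, 178, 174, 168 and 173 TPM in light-phase replicates 1 to 6, and 171, 173, 194, 178, 187 and 177 TPM in dark-phase replicates 1 to 6. The dark-phase values lay inside the range of the light-phase values, whose highest was again that of light-phase replicate 2. With 183 ± 16.8 TPM against 180 ± 8.70 TPM (SD over n = 6 rats), the log2 fold change was -0.03 (95% interval -0.13 to 0.07, limma adjusted p = 0.664), which leaves room for a dark-phase level between 0.912 and 1.05 times that of the light phase. Without light-phase replicate 2 it was -0.0029 (limma adjusted p = 0.969), and after adjustment for the FPKM to TPM ratio -0.10 (limma adjusted p = 0.520). In brain tissue GLUL is an enzyme of astrocytes. Of 5 astrocyte markers listed only ALDOC, with 36.0 to 107 TPM by day and 44.6 to 81.3 TPM by night, had an identifier, and the part of astrocytes in GLUL was not tested.

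**Figure D1:**
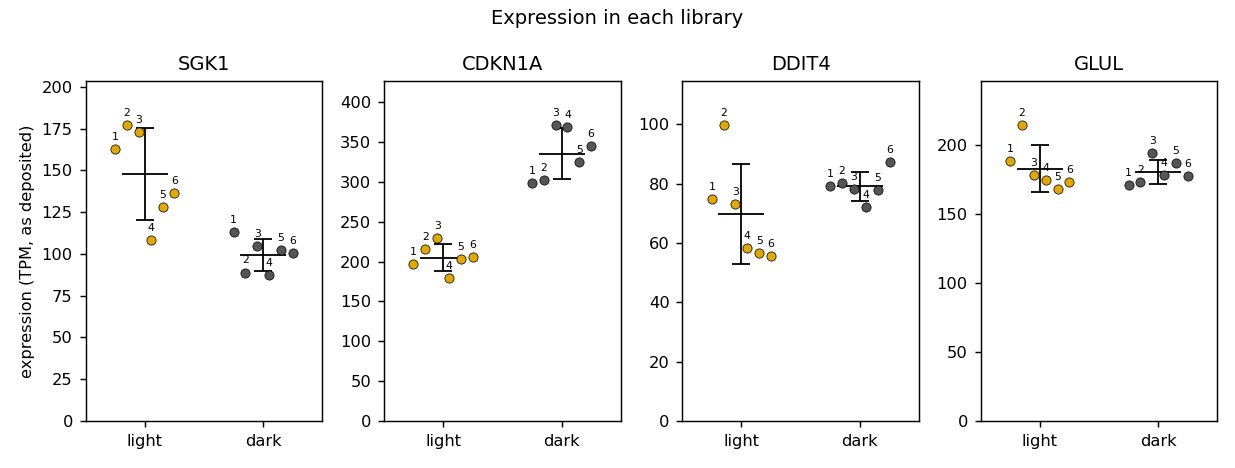
Expression of the 4 members as deposited, in TPM from 0 on each vertical axis, with 1 point per library numbered by replicate and a bar and whiskers for the mean and SD of the 6 libraries of a phase. CDKN1A does not overlap between the phases, SGK1 overlaps only where light-phase replicate 4 (108 TPM) lies below dark-phase replicate 1 (113 TPM), and DDIT4 spreads from 55.7 to 99.7 TPM in the light phase.

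Ratios of members within a library need no scaling between libraries, and show only how one gene stands to the other. The ratio of SGK1 to CDKN1A in TPM was 0.605 to 0.829 by day (median 0.708) and 0.237 to 0.377 by night (median 0.293), with no overlap. The ratio of SGK1 to DDIT4 did not overlap either, at 1.78 to 2.45 by day and 1.11 to 1.43 by night. Nor did that of CDKN1A to DDIT4 (2.17 to 3.70 and 3.77 to 5.13) or that of GLUL to CDKN1A (0.776 to 0.991 and 0.482 to 0.574). Each ratio taken holds SGK1 or CDKN1A, the members called, and the share of such ratios among all pairs of genes was not determined. Because TPM are corrected for transcript length, levels of the genes can also be set in order. In both phases CDKN1A was highest, followed by GLUL, SGK1 and DDIT4, and each step of this order was found in 6 of 6 libraries of each phase, a description of the libraries from which the order was read. CDKN1A exceeded GLUL by a mean of 0.17 on the log2 scale in the light phase and by 0.89 in the dark phase, whereas SGK1 exceeded DDIT4 by 1.09 and 0.33.

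The members also differed in how much they varied among the rats of a phase. In the light phase the SD was 18.7% of the mean in SGK1 and 24.3% in DDIT4, against 8.33% in CDKN1A and 9.20% in GLUL. In the dark phase it was 9.75% in SGK1, 6.18% in DDIT4, 9.48% in CDKN1A and 4.83% in GLUL. The mean absolute deviation of DDIT4 from the median of its phase, on the log2 scale, was 0.219 by day and 0.053 by night, a difference of -0.17 (two-sided exact permutation test over 924 splits, p = 0.00866, Benjamini-Hochberg adjusted over the 4 members 0.0346). Without light-phase replicate 2 this difference was -0.09 (exact permutation test, adjusted p = 0.433), and it was not called with any other of the 12 libraries left out except dark-phase replicate 6. For SGK1 the difference was -0.10 (exact permutation test, adjusted p = 0.199), for CDKN1A 0.05 (adjusted p = 0.266) and for GLUL -0.01 (adjusted p = 0.732), so that a difference in spread was not shown for these.

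To determine whether the members varied together among rats of the same phase, the 6 pairs of members were correlated within each phase, 12 relations in all. None passed an adjusted p of 0.05. The highest r in the light phase was that of DDIT4 and GLUL (Pearson r = 0.84, exact permutation p = 0.0431, adjusted 0.506, Spearman rho = 0.71, exact permutation p = 0.136), and it was 0.09 without the 2 libraries farthest from the median of DDIT4. SGK1 and DDIT4 had r = 0.74 in the light phase (exact permutation p = 0.0944, adjusted 0.506, rho = 0.66, exact permutation p = 0.175), and r = 0.79 without the 2 libraries farthest from the median of SGK1. In the dark phase the same pair had r = 0.16 (exact permutation p = 0.794, adjusted 0.953, rho = 0.14, exact permutation p = 0.803). CDKN1A and GLUL had r = 0.69 in the dark phase (exact permutation p = 0.126, adjusted 0.506, rho = 0.71, exact permutation p = 0.136) and r = -0.28 in the light phase (exact permutation p = 0.593, adjusted 0.791, rho = -0.66, exact permutation p = 0.175). In the light phase, replicates 1, 2 and 3 held the 3 highest values of both SGK1 and DDIT4.

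**Figure D2:**
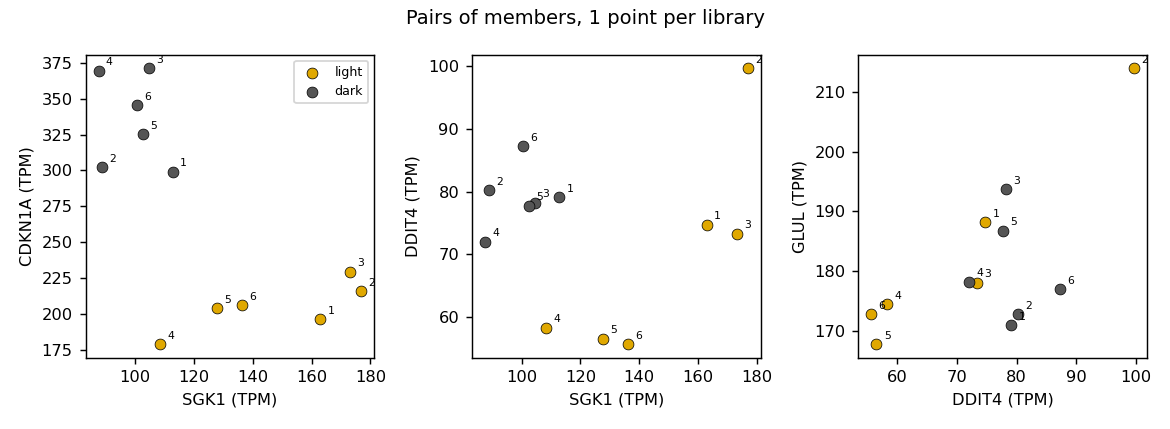
Pairs of members in TPM as deposited (axes do not start at 0), with 1 point per library numbered by replicate. In the panel of SGK1 and CDKN1A the light-phase libraries lie to the lower right and the dark-phase libraries to the upper left, and in the panel of SGK1 and DDIT4 light-phase replicates 1 to 3 lie apart from replicates 4 to 6.

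The members were also set against the FPKM to TPM ratio and the relative depth of the library, after their values had been seen, and none of these 16 relations passed an adjusted p of 0.05. In the light phase this ratio was correlated with SGK1 at r = -0.89 (exact permutation p = 0.0222, adjusted 0.178, rho = -0.83, exact permutation p = 0.0583) and with DDIT4 at r = -0.88 (exact permutation p = 0.0222, adjusted 0.178, rho = -0.83, exact permutation p = 0.0583). Without the 2 libraries farthest from the median ratio, r was -0.84 for SGK1 and -0.88 for DDIT4. In the dark phase r was -0.80 for SGK1 (exact permutation p = 0.0667, adjusted 0.289, rho = -0.66, exact permutation p = 0.175) and -0.68 for DDIT4 (exact permutation p = 0.135, adjusted 0.374, rho = -0.66, exact permutation p = 0.175). Without the 2 farthest libraries these became -0.93 and 0.53, so that the relation of DDIT4 in the dark phase rests on those libraries. CDKN1A had r = -0.18 in the light phase (exact permutation p = 0.715, adjusted 0.803, rho = -0.14, exact permutation p = 0.803) and 0.27 in the dark phase (exact permutation p = 0.599, adjusted 0.737, rho = 0.31, exact permutation p = 0.564). GLUL had r = -0.66 in the light phase (exact permutation p = 0.140, adjusted 0.374, rho = -0.37, exact permutation p = 0.497), and -0.95 without the 2 farthest libraries. In the dark phase GLUL had r = 0.18 (exact permutation p = 0.753, adjusted 0.803). Against relative depth the highest r was that of CDKN1A in the dark phase (0.82, exact permutation p = 0.0722, adjusted 0.289, rho = 0.71, exact permutation p = 0.136). It was -0.17 without the 2 libraries farthest from the median depth. Adding the ratio, which was higher in the light phase, to the model changed the phase estimate of SGK1 from -0.57 to -0.92 (limma adjusted p = 0.000205). That of CDKN1A was 0.69 without the ratio and 0.71 with it (limma adjusted p = 0.00424). The ratio and the phase were themselves correlated (r = -0.78, with the dark phase as 1). Adding the ratio can therefore widen the standard error of a phase estimate, from 0.07 to 0.11 in CDKN1A. A call lost under this adjustment need not mean a smaller estimate. The calls of SGK1 and CDKN1A held within this adjustment, and the part of the ratio in the values of DDIT4 was not tested further.

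**Figure D3:**
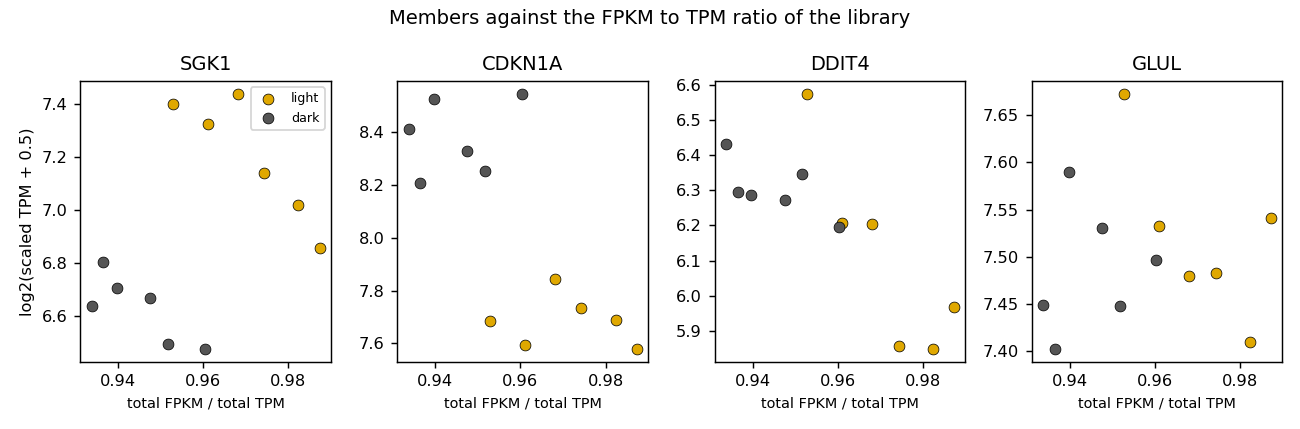
Each member on the vertical axis, as log2(scaled TPM + 0.5), against the FPKM to TPM ratio of the library, with 1 point per library and a vertical range of its own for each gene. SGK1 falls with the ratio within both phases (r = -0.89 by day and -0.80 by night), while CDKN1A shows r = -0.18 and 0.27.

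For each member, the 3 genes most like it in variation among rats were sought among 3070 genes with a symbol that averaged 10 TPM or more. Values were centered within each phase, and Pearson r over the 12 libraries was the measure of likeness. These r are descriptions of genes picked as the highest of many, from libraries that share the differences in depth and FPKM to TPM ratio given above. For SGK1 the nearest were PHF20 (0.93), ANKS3 (0.91) and TRAK1 (0.90), and for CDKN1A NOP2 (0.88), JMJD6 (0.85) and PI4K2B (0.84). All of these were paired only through the table of differentially expressed genes. PHF20 was called higher by night (log2 fold change 0.29, limma adjusted p = 0.0192), TRAK1 higher by day (-0.14, 0.0170), and the others were not called. For DDIT4 the nearest was RHOB, a small GTPase (0.93), followed by PDS5A (0.92) and PICALM, a clathrin assembly protein (0.91). Within the light phase r was 0.96 for RHOB, 0.99 for PDS5A and 0.94 for PICALM, and within the dark phase 0.38, 0.49 and 0.74, so that the likeness to DDIT4 was mostly that of the light-phase libraries. For GLUL they were CMTM6 (0.86), CYB5R3 (0.86) and JMJD1C (0.81).

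The other genes of the pathways in which the members act were taken from 9 lists. Symbols were known for 1682 of the 1703 genes that averaged 60 TPM or more, and below that level mostly for genes that the study's table of differentially expressed genes holds. Counts are therefore given only for the 33 listed genes at or above 60 TPM, other than the members. Of these, 8 rose by night, 5 fell by night and 20 were not called, while 9.86% and 12.6% of all genes at that level rose and fell. Their median log2 fold change was 0.07, against -0.02 for all genes at that level. After adjustment for the FPKM to TPM ratio, limma called 3 of the 33 as rising (HSP90AA1, ANXA2 and CDKN1C) and 0 as falling, and at an unadjusted p under 0.05 the estimates were 9 above and 4 below 0.

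The steroid receptor chaperones that were called were all higher by night. Of 10 at or above 60 TPM, 4 rose by night and 0 fell (limma, with 6 above and 0 below 0 at an unadjusted p under 0.05), with a median log2 fold change of 0.15. HSP90AA1, the inducible cytosolic HSP90, rose from 429 ± 62.5 TPM to 747 ± 60.9 TPM (SD over n = 6 rats), a log2 fold change of 0.79 (limma adjusted p = 3.96e-05). Its constitutive partner HSP90AB1 rose from 553 ± 71.9 TPM to 772 ± 49.3 TPM (SD over n = 6 rats), a log2 fold change of 0.47 (limma adjusted p = 0.000693, and 0.0813 after adjustment for the FPKM to TPM ratio). AHSA1, which activates the HSP90 ATPase, and STIP1, which links HSP70 to HSP90, had log2 fold changes of 0.39 and 0.27 (limma adjusted p = 0.00142 and 0.0309). After adjustment for the FPKM to TPM ratio AHSA1 and STIP1 kept estimates of 0.39 and 0.27. Their standard errors were 0.11 and 0.13 in place of 0.07 and 0.08, and neither was called (limma adjusted p = 0.0813 and 0.298). Of the 4 only HSP90AA1 stayed called (limma adjusted p = 0.0133), and the call of STIP1 was lost under 9 of 23 alternatives. HSPA8, the most abundant of the list, had a log2 fold change of 0.17 and was not called (limma adjusted p = 0.128). FKBP4, the immunophilin that carries the receptor towards the nucleus, lies just below the level at 59.1 TPM, and had 46.1 ± 6.94 TPM by day and 72.1 ± 3.84 TPM by night (SD over n = 6 rats), a log2 fold change of 0.63 (limma adjusted p = 0.00018). It was paired through the table of differentially expressed genes, so that its call is not counted.

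Of 34 other glucocorticoid targets listed, 5 could be paired with an identifier and only ANXA2 reached 60 TPM, so that the group cannot be described as a whole. ANXA2, a membrane-binding annexin, rose from 144 ± 16.8 TPM to 196 ± 16.0 TPM (SD over n = 6 rats) with no overlap, a log2 fold change of 0.43 (limma adjusted p = 0.000911). Below 60 TPM, MT1, a metallothionein that binds zinc, had 71.6 ± 22.0 TPM by day and 38.3 ± 6.07 TPM by night (SD over n = 6 rats), a log2 fold change of -0.86 (limma adjusted p = 0.0114). CEBPB, a transcription factor paired only through the table of differentially expressed genes, had a log2 fold change of 0.73 (limma adjusted p = 0.00138). The genes that could be named thus included some higher in either phase, as did the members. After adjustment for the FPKM to TPM ratio MT1 (estimate -0.57, limma adjusted p = 0.363) and CEBPB (0.57, 0.137) were not called, while ANXA2 was (0.46, 0.0442). The receptor NR3C1 itself could not be paired. The 6 receptor coregulators that could be, among them NCOA2, NCOA3 and NCOR1, came from the table of differentially expressed genes alone, and AKR1B1, the 1 listed gene of corticosteroid metabolism that was paired, had a log2 fold change of -0.10 (limma adjusted p = 0.191).

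Around SGK1, 6 genes of its activators and substrates were at or above 60 TPM, of which 1 rose by night and 2 fell. NDRG2, of the family whose members SGK1 phosphorylates, was lower in the dark phase, with 332 ± 32.3 TPM against 277 ± 19.0 TPM (SD over n = 6 rats) and a log2 fold change of -0.27 (limma adjusted p = 0.0107). NEDD4, a ubiquitin ligase related to the SGK1 target NEDD4L, had a log2 fold change of -0.11 (limma adjusted p = 0.0383), lost under 12 of 23 alternatives. YWHAZ, a 14-3-3 protein that binds phosphorylated targets, had 0.18 (limma adjusted p = 0.00255). ATP1B1, the sodium pump subunit and most abundant gene of the list, had 1192 ± 89.5 TPM and 1204 ± 42.9 TPM (SD over n = 6 rats), a log2 fold change of 0.00036 (limma adjusted p = 0.998). WNK1, a kinase paired only through the table of differentially expressed genes, had a log2 fold change of 0.38 (limma adjusted p = 1.79e-05). After adjustment for the FPKM to TPM ratio WNK1 stayed called (estimate 0.31, limma adjusted p = 0.00825). NDRG2 (-0.32, limma adjusted p = 0.131), NEDD4 (-0.16, 0.107) and YWHAZ (0.21, 0.0644) did not, though their estimates were no closer to 0.

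Around CDKN1A, 3 p53 targets were at or above 60 TPM, of which limma called 0 as rising by night and 1 as falling. At an unadjusted p under 0.05 the estimates were 0 above and 2 below 0. Of all genes at that level, 9.86% rose and 12.6% fell, so that so few genes cannot be told from the background. MDM2, the ubiquitin ligase that p53 induces and that degrades it, was lower in the dark phase, at 63.1 ± 4.74 TPM against 74.2 ± 8.21 TPM (SD over n = 6 rats), a log2 fold change of -0.25 (limma adjusted p = 0.0144). MDM2 was not called after adjustment for the FPKM to TPM ratio (estimate -0.33, limma adjusted p = 0.0927) or with the replicate number as a block (limma adjusted p = 0.0724). CCNG1, another p53 target, had a log2 fold change of 0.14 and was not called (limma adjusted p = 0.332). Below 60 TPM, GADD45G had -0.23 (limma adjusted p = 0.0474, lost under 12 of 23 alternatives) and BTG2, paired only through the table of differentially expressed genes, 0.52 (limma adjusted p = 0.00206). Of 3 cyclins and cyclin-dependent kinase inhibitors at that level, CDKN1C (p57), of the same inhibitor family as CDKN1A, was called, with 198 ± 13.8 TPM by day and 234 ± 16.1 TPM by night (SD over n = 6 rats) and a log2 fold change of 0.22 (limma adjusted p = 0.0196). CDK4, a kinase that CDKN1A binds, had 52.1 ± 1.86 TPM and 44.9 ± 4.01 TPM (SD over n = 6 rats), a log2 fold change of -0.23 (limma adjusted p = 0.0142). CDK6, paired only through the table of differentially expressed genes, had 0.53 at 3.05 and 4.68 TPM (limma adjusted p = 0.00391). CDKN1C stayed called after adjustment for the ratio (limma adjusted p = 0.0478), though not with the block (0.0542). The estimate of CDK4 adjusted for the ratio was -0.12 (limma adjusted p = 0.489). CDK6 (0.61, limma adjusted p = 0.0769), BTG2 (0.43, 0.152) and GADD45G (-0.19, 0.426) were not called with it either.

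Around DDIT4, 0 of the 5 mTORC1 genes at or above 60 TPM were called by limma, though 3 had an unadjusted p under 0.05, with a median log2 fold change of -0.06. TXN2, a mitochondrial thioredoxin and the most abundant of the list, had a log2 fold change of -0.06 (limma adjusted p = 0.533). PPP2CA, also counted here, ran from 12.7 to 87.5 TPM by day (median 79.8) and from 74.2 to 82.6 TPM by night. Its log2 fold change was 0.39 with a standard error of 0.39 (limma adjusted p = 0.531). Among genes paired through the table of differentially expressed genes, TSC2, through which DDIT4 acts, had 0.22 (limma adjusted p = 0.0269, lost under 7 of 23 alternatives), ULK1 0.19 (limma adjusted p = 0.0135) and DEPTOR, an inhibitor of mTOR, -0.35 (limma adjusted p = 0.0317, lost under 10 of 23 alternatives). None of these was called after adjustment for the FPKM to TPM ratio (limma adjusted p = 0.329, 0.123 and 0.303), with estimates of 0.20, 0.23 and -0.34. Around GLUL, 5 genes of glutamine and glutamate handling reached 60 TPM, of which 1 rose by night and 2 fell. SLC38A3, the transporter SNAT3 that carries glutamine, was lower in the dark phase without overlap (log2 fold change -0.61, limma adjusted p = 0.000311). The transaminases GOT1 and GOT2 had log2 fold changes of 0.16 (limma adjusted p = 0.0175) and -0.10 (limma adjusted p = 0.0375), the latter lost under 11 of 23 alternatives. SLC7A5, a large neutral amino acid transporter paired only through a table of differentially expressed genes, had -0.60 (limma adjusted p = 0.0015). SLC7A5 stayed called after adjustment for the ratio (limma adjusted p = 0.0328). SLC38A3, at -0.34 (limma adjusted p = 0.0669), GOT1, at 0.19 (0.162), and GOT2, at -0.09 (0.333), did not.

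**Figure D4:**
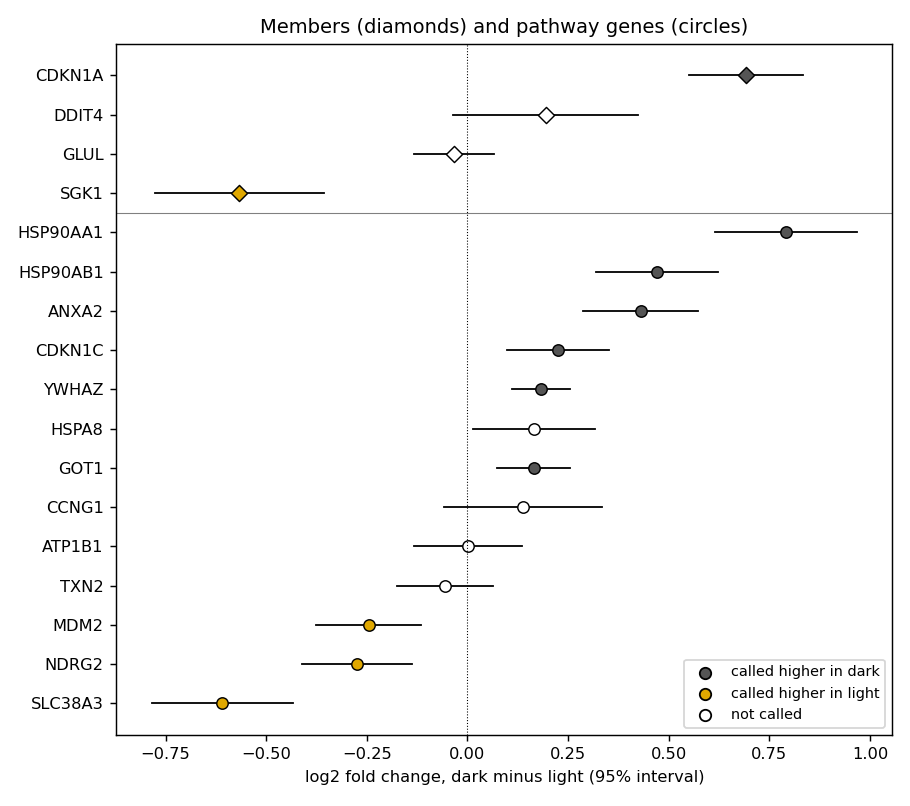
Log2 fold change of the dark phase against the light phase on the horizontal axis, with 95% intervals from limma, for the 4 members (diamonds) and pathway genes (circles). The pathway genes shown are those at or above 60 TPM with the 3 smallest p or the highest mean of a list. STIP1, AHSA1, NEDD4 and GOT2, also called at that level, are not shown. Symbols are dark gray where called higher in the dark phase, yellow where called higher in the light phase and white where not called. CDKN1A (0.69) and SGK1 (-0.57) lie on opposite sides of 0, and the intervals of DDIT4 and GLUL include 0.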

How the data were processed

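RNA-seq of rat choroid plexus (12 libraries, 1 per rat) was used. According to the labels and methods, STAR 2.7.9a mapped the reads to Rnor_6.0 and RSEM 1.3.3 quantified the genes. The authors deposited TPM, which served for all tests and sum to the same total in each library, and the authors' FPKM from the same RSEM output, which served for the depth estimate, for 1 alternative and for the FPKM to TPM ratio of the column totals. Counts were not used, and DESeq2, which the authors applied to read counts, was not rerun.

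TPM were divided by a trimmed mean of ratios per library (30% of ratios and 5% of levels trimmed at each end), and limma 3.58.1 (R 4.3.3) with a variance trend was fitted with phase as the only term. Means, SDs and single values are TPM as deposited. The members, lists and tests were chosen with earlier results of these data known, so that the lists are no independent evidence. Genes were named by a rule: the members, the 3 smallest p and the highest mean of each list, called genes of the lists at or above 60 TPM, and the 3 genes most alike. Called genes below 60 TPM outside this rule, such as SESN1, PDPK1 and CTPS1, were not described. Symbols came only from the study's tables, used in part, and 1 coregulator is not reported here. Exact permutation tests used Python 3.11.15 with numpy 2.4.6. On simulated data with 200 changed genes among 12513, 83.5% were recovered (54% at 1.3-fold, 96% at 2-fold), with 14 false calls. No pair of libraries was identical, and correlations between libraries ran from 0.958 to 0.983. Alternatives covered scaling, pseudocount, filter, replicate block, covariate, variances, weights, unit and each library left out.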

Additional observations from a re-analysis of the deposited data

Results flagged for a closer look

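The 38 members and pathway genes tested by name were searched for a library that lay beyond Dixon's critical gap from the other 5 of its phase. In 76 groups 3 values stood apart, where 3.8 would by chance, and none was in a member. List genes not tested by name were outside this search. Among these was PPP2CA, whose lowest light-phase value was 12.7 TPM against a light-phase median of 79.8 TPM. CEBPB had 35.1 TPM in light-phase replicate 2, against 20.1 to 24.4 TPM in the other light-phase libraries. CDK4 had 55.8 TPM in the same library, against 51.0 to 52.2 TPM. CDKN1C had 225.0 TPM in light-phase replicate 3, against 187 to 199 TPM.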

How the results depend on the processing

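SGK1 and CDKN1A kept direction and call under all 23 alternatives, with log2 fold changes of -0.92 to -0.52 and 0.66 to 0.73. The filter, replicate block, robust variances and unit could change a call but hardly the estimate itself (SGK1 -0.57 under each). GLUL was not called under any of the 23 alternatives (-0.10 to -0.0029), and DDIT4 only without light-phase replicate 2 (0.14 to 0.29 with single libraries left out). Adjusted for the FPKM to TPM ratio, the estimates reversed for DDIT4 (-0.16), CCNG1 (-0.14), TXN2 (0.094) and AKR1B1 (0.00015), and 224 and 121 genes were called higher in the dark and the light phase over the whole table, with 3 and 0 of the pathway genes; the cause was not tested. Of the 5 pathway genes higher in the light phase, 3 were called on TPM as deposited, 2 with the replicate block, and 3 to 5 with single libraries left out. ATP1B1, close to 0, changed sign with median of ratios scaling (-0.00018), with sample weights (-0.024) and with single libraries left out (-0.054 to 0.023). The difference in spread lay between -0.184 and -0.088 for DDIT4 and between -0.027 and 0.016 for GLUL with single libraries left out. On TPM as deposited the correlation of CDKN1A and GLUL in the light phase was 0.28, and that of SGK1 and GLUL in the dark phase 0.17. Over 5 alternatives the light-phase r of DDIT4 and GLUL ran from 0.84 to 0.95 (lowest adjusted exact permutation p = 0.05). That of SGK1 and CDKN1A ran from 0.53 to 0.80 (lowest adjusted exact permutation p = 0.222). The shared replicate numbers did not pair the libraries, since deviations of same-numbered libraries correlated at -0.11 to 0.05 and 0 of 6 matched its own number best. With the replicate block 853 and 721 genes were called, and the members' calls stayed (SGK1 FDR = 0.00405, CDKN1A FDR = 0.000414, DDIT4 FDR = 0.226, GLUL FDR = 0.713, limma). Of the named genes called by limma, MDM2 and CDKN1C lost their call with the block, besides those said above to lose it under several alternatives. The number of reads is unknown, so that counting error could not be separated from the spread between rats.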
